A study of Mus musculus with 11 samples.

Results

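The PI3K, AKT and mTOR pathway was followed at the RNA level in mouse liver, through 30 genes chosen by name from the core of the pathway, out of 24063 genes in the deposited tables. They are 4 catalytic and 3 regulatory subunits of PI3K, 3 kinases (PDK1, AKT1 and AKT2), 3 phosphatases, the TSC complex with RHEB, 7 components of the mTOR complexes and 7 substrates. Livers of 6 mice treated with A2M, with 23545121 to 37357134 counted reads each, were set against livers of 5 mice treated with PBS, with 31513210 to 46381692. A2M was the activated form (A2M*) of human alpha2-macroglobulin, a plasma proteinase inhibitor cleared through the receptor LRP1, given by repeated intraperitoneal injection, and control mice received PBS. All mice of both groups were male, 8 weeks old at grafting, of the strain labelled Cd1 nu/nu, and carried a subcutaneous human tumour. Athymic mice lack mature T cells, and the labels do not say which tumour line each mouse carried. Nothing in the labels gives a time of day, a date or a batch, so these cannot be told apart from the treatment. Arntl and Dbp, 2 genes of the circadian clock, did not overlap between the groups: Arntl lay between 0.259 and 2.20 RPKM in A2M livers and between 3.21 and 10.3 RPKM in PBS livers, and Dbp between 21.2 and 40.5 RPKM in A2M livers and between 0.155 and 7.14 RPKM in PBS livers. The part of the time of day in the values below was not tested.

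PI3K is a lipid kinase that insulin and growth factor receptors recruit to the membrane. Its lipid product brings PDK1 and AKT together, and active AKT phosphorylates GSK3, BAD and the TSC complex. Without TSC activity RHEB activates mTOR complex 1, which phosphorylates the S6 kinases and the 4E-BP proteins and so promotes protein synthesis. In liver the pathway carries the insulin signal to glycogen, lipid and protein synthesis. The pathway acts by phosphorylation, which RNA levels do not measure.

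None of the 29 genes that could be tested changed between A2M and PBS livers at the threshold used, an adjusted p under 0.01 in edgeR. Among all 12581 genes tested 27 (0.215%) passed it. The pathway genes also gave a count of 0 by DESeq2, which called 286 genes in all, and by the edgeR exact test, which called 196. At an unadjusted p under 0.05 there were 3 of 29 pathway genes (10.3%), Rps6kb2, Eif4ebp2 and Akt2, against 14.7% of all genes, so their share was not above the background. The genes were chosen with earlier results of these data known, which limits such comparisons with all genes. A count of 0 of 29 had livers of the groups that did not overlap, against 2.59% of all genes. The fold changes were small: their median was 0.06 on the log2 scale and they ran from -0.40 for Pik3r2 to 0.59 for Eif4ebp2, with 17 above and 12 below 0. The median size of the log2 fold change was 0.17, against 0.15 over all genes tested. For 23 of 29 genes (79.3%) the whole 95% interval of the fold change lay within 1.5-fold in either direction, which held for 57.4% of all genes. For the other 6, Pik3cd, Pik3r2, Pik3r3, Eif4ebp1, Eif4ebp2 and Rps6kb2, a change beyond 1.5-fold was within the interval.

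**Figure D1:**
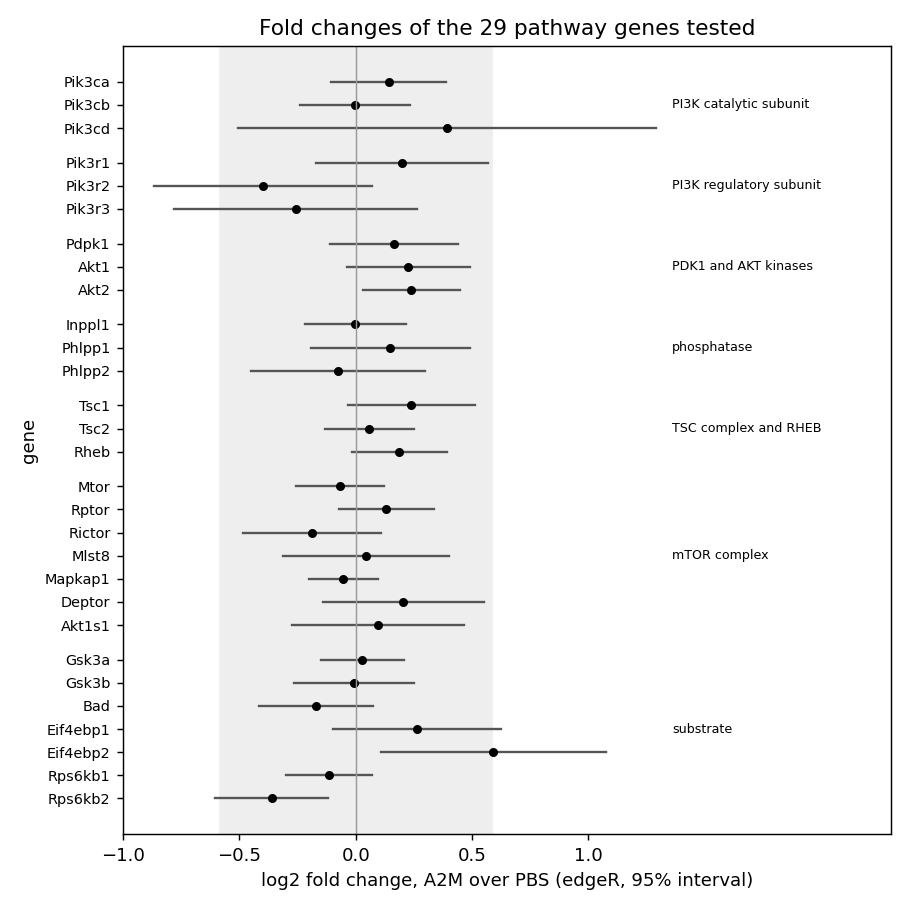
Log2 fold change (A2M over PBS, x axis) of the 29 pathway genes tested, by role, with the 95% interval of the edgeR fit as a line. The shaded band marks a change within 1.5-fold; the intervals of 23 genes stay inside it, and those of Akt2, Eif4ebp2 and Rps6kb2 do not reach 0.

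Levels are given as RPKM, read counts scaled to the exon length and the library total, which allows genes to be compared with each other. The inhibitor of translation Eif4ebp1 stood first with a mean of 54.5 RPKM over the 11 livers, followed by the main insulin-responsive AKT gene Akt2 (35.3 RPKM), Eif4ebp2 (25.6 RPKM), Rheb (24.3 RPKM) and Akt1 (17.7 RPKM). The leukocyte catalytic subunit Pik3cg stood last with 0.0419 RPKM. Of the 29 neighbouring pairs in this order, 4 kept their order in all 11 livers: Eif4ebp1 above Akt2, Pik3cb above Mlst8, Rictor above Pik3r3, and Phlpp2 above Pik3cg. The neighbours Tsc2 and Rptor, Mlst8 and Rictor, and Rps6kb2 and Inppl1 kept theirs in only 6 of 11. Pik3cd was above its neighbour Phlpp2 in only 5 of 11.

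**Figure D2:**
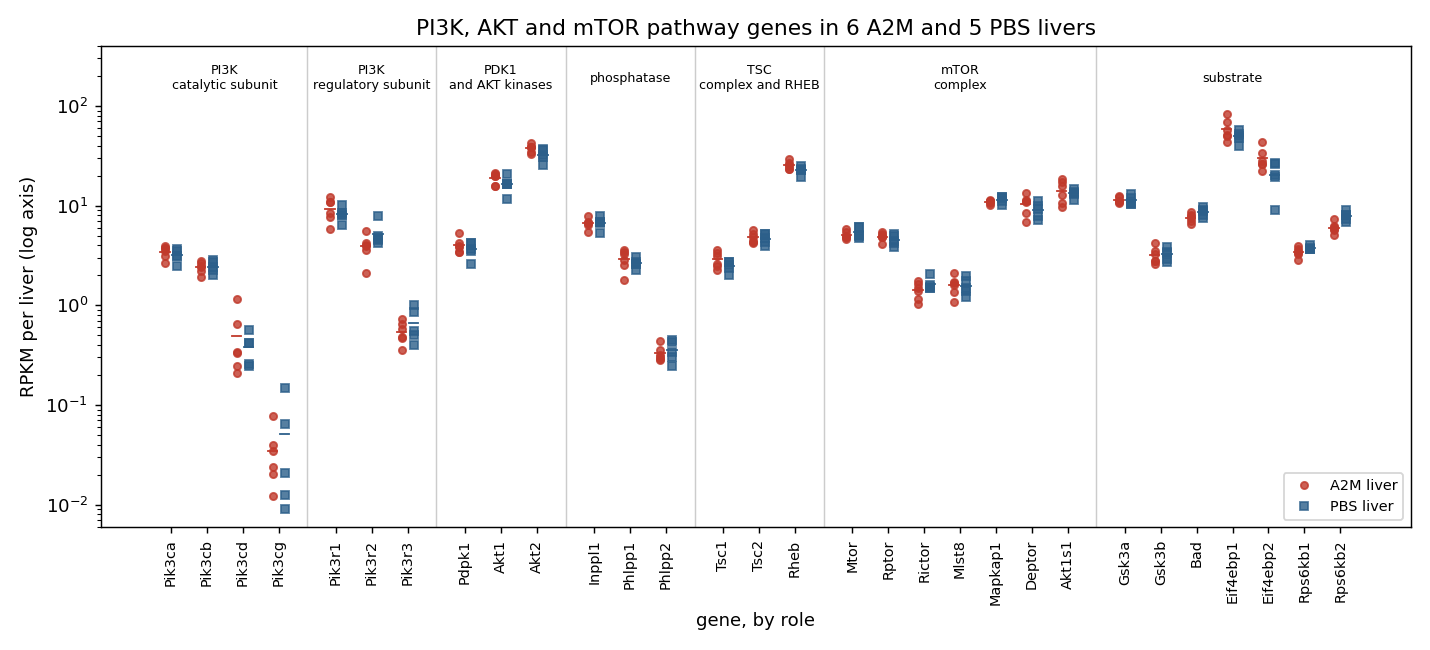
RPKM of the 30 pathway genes (log y axis) in each A2M liver (circles, n = 6) and PBS liver (squares, n = 5), by role, with a line at each group mean. Levels run from 0.0419 RPKM for Pik3cg to 54.5 RPKM for Eif4ebp1, and the groups overlap for each gene.

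Promoter sequences are shown for Rheb, the only pathway gene with an E-box there, and for Eif4ebp2, which had the largest fold change. Both windows come from the RefSeq annotation of GRCm38.p6, from 250 bases before to 50 bases after a start of transcription, and both genes lie on the minus strand. For Rheb this start is the gene's listed first base. For Eif4ebp2 it lies inside the gene, downstream of the listed first base at 61452790. Capitals mark matches, on either strand, to the E-box CACGTG, bound by MYC and by clock factors, and to the GC box GGGCGG, bound by SP1.
Rheb (chr5:24842312-24842611): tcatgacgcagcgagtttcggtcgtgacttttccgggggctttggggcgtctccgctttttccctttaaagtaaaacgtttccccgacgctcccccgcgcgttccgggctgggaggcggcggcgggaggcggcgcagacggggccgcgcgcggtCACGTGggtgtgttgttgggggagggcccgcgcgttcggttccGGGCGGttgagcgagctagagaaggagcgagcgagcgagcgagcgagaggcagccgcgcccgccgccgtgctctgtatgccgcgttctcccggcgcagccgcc
Eif4ebp2 (chr10:61452620-61452919): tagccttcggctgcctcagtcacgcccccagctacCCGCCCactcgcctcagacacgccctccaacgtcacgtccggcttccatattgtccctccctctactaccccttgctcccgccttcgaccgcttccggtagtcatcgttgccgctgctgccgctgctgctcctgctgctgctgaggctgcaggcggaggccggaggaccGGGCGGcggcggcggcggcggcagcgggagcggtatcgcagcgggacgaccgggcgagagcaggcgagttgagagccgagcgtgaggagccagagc
The Rheb window holds 1 E-box, which begins 96 bases before the start, and 1 GC box. The Eif4ebp2 window holds 2 GC boxes and no E-box. A promoter entry was found for 27 of the 30 genes, all but Deptor, Eif4ebp1 and Rps6kb2. Rheb was thus 1 of 27 (3.7%) with an E-box, against 8.09% of 27025 genes with a promoter entry, while 20 of 27 (74.1%) had a GC box, against 38.2% of all. A gene can have several windows: counted by window, 25 of 41 pathway windows had a GC box, against 35.7% of all 32851. The pathway windows were also richer in G and C, with a median of 59.3% against 52.7% over all windows, and the part of this in the GC boxes was not tested. The palindromic cyclic AMP element TGACGTCA was in none of the 27 and in 2.03% of all. These backgrounds hold every gene with a promoter entry, also genes not tested here, and no background of tested genes was formed. No matched base in the printed windows belongs to more than 1 motif, and a match is a description of the letters only.

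Among the catalytic subunits, which carry the lipid kinase, liver expressed mainly Pik3ca and Pik3cb. Pik3ca (p110 alpha), the form that insulin uses in liver, had 2.68 RPKM in the lowest A2M liver, a median of 3.60 and 3.94 in the highest, against 3.10, 3.70, 3.50, 2.46 and 3.12 RPKM in the PBS livers. The groups overlapped across almost their whole range, and the log2 fold change was 0.14 (SE 0.115) with an edgeR adjusted p of 0.623. Pik3cb (p110 beta) averaged 2.41 ± 0.315 RPKM in A2M and 2.45 ± 0.339 RPKM in PBS livers (SD, n = 6 and 5), with a log2 fold change near 0 and a 95% interval from -0.24 to 0.23. Pik3ca held 54.0 ± 4.4% of the RPKM of the catalytic subunits in A2M and 52.5 ± 3.6% in PBS livers.

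Pik3cd and Pik3cg, the subunits known from leukocytes, were low throughout. Pik3cd had 0.208 RPKM in the lowest A2M liver, a median of 0.336 and 1.16 in the highest, against 0.561, 0.423, 0.247, 0.259 and 0.421 RPKM in PBS livers. The highest value was that of A2M replicate 1, above every other liver. The log2 fold change of Pik3cd, 0.39 (SE 0.416, edgeR adjusted p = 0.727), turned to -0.07 without that liver. In A2M replicate 1 the sum of 10 leukocyte markers was 96.9 RPKM, against 6.42 to 25.6 in the other A2M livers and 6.35 to 26.5 in PBS livers, and the sum of 11 Kupffer cell and macrophage markers was 368 RPKM, against 71.1 to 158 in the other A2M livers and 54.4 to 151 in PBS livers. S100a8 and S100a9 gave 28.4 and 38.0 RPKM of the leukocyte sum in A2M replicate 1. Of the 10 markers only Cd79a was not highest in that liver. Of the leukocyte markers 8 were tested, 7 of them with a fold change above 0 and none past the threshold, and the lymphocyte markers Cd3e, Cd79a and Ms4a1 were at 0 in at least 1 liver. All 11 Kupffer cell markers had a fold change above 0, none past the threshold, and none was at 0. The part of these cells in the value of Pik3cd was not tested. In whole liver RNA, a change in the number of such cells and a change in RNA per cell cannot be told apart. Pik3cg had 2 to 40 reads per liver and was removed by the filter on low counts. With no filter Pik3cg had a log2 fold change of -0.47 (SE 0.667) and an edgeR adjusted p of 0.786. It lay at 0.0122, 0.0292 and 0.0768 RPKM (lowest, median and highest) in A2M livers, against 0.0208, 0.148, 0.00913, 0.0124 and 0.0638 RPKM in PBS livers, with an overlap of the groups. Its highest value was in PBS replicate 2, where adrenal cortex markers summed to 366 RPKM and fat markers to 938 RPKM, against at most 12.5 and 7.53 RPKM in A2M livers and at most 8.05 and 20.1 RPKM in the other PBS livers. Of the 5 adrenal markers 3 were tested and of the 5 fat markers 2, all with a fold change below 0, and Cyp11a1, Cyp11b1, Adipoq, Plin1 and Cfd were at 0 in at least 1 liver. The part of these tissues in the value of Pik3cg was not tested.

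The regulatory subunits bind the receptors and hold the catalytic subunits. Pik3r1 (p85 alpha) led them, with 5.85 RPKM in the lowest A2M liver, a median of 9.65 and 12.3 in the highest, against 10.1, 8.50, 6.41, 8.10 and 8.12 RPKM in PBS livers. A2M replicate 6 was below every PBS liver and 3 A2M livers were above every PBS liver, and the log2 fold change was 0.20 (SE 0.171) with an edgeR adjusted p of 0.653. Without A2M replicate 2, the highest liver, it was 0.09. Pik3r2 (p85 beta) had the lowest fold change of the pathway, with 3.93 ± 1.12 RPKM in A2M (2.10 to 5.58) and 5.25 ± 1.46 RPKM in PBS livers (4.25 to 7.81), a log2 fold change of -0.40 (SE 0.217, edgeR adjusted p = 0.434). Its value without PBS replicate 1, the highest liver, was -0.24. The sum of 5 cholangiocyte markers was 152 RPKM in that liver, against 16.8 to 27.2 RPKM in A2M livers and 13.2 to 45.6 in the other PBS livers. Spp1 alone gave 149 RPKM of that sum, while the duct keratin genes Krt19 and Krt7 were at 0.421 and 0.310 RPKM there, near the low end of the 11 livers. Epcam, at 0.393 RPKM, lay within the range of the other livers, and Sox9, at 1.92 RPKM, was highest in that liver. Of the 5 markers 3 had a fold change above 0 and none was at 0, and the part of Spp1 or of these cells in the value of Pik3r2 was not tested. Pik3r3 (p55 gamma) had 0.357 RPKM in the lowest A2M liver, a median of 0.530 and 0.730 in the highest, against 0.866, 1.02, 0.400, 0.552 and 0.499 RPKM in PBS livers, and the groups overlapped. Its log2 fold change of -0.26 (SE 0.242) was -0.10 without PBS replicate 2.

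Set against each other within a liver, Pik3r2 made up 28.4 ± 3.7% of the RPKM of the regulatory subunits in A2M livers (24.0 to 32.8%) and 36.8 ± 4.0% in PBS livers (32.9 to 41.7%). This was the only share without overlap among 21 shares in 8 gene families. It was noticed after the values were seen and is given with no test. Shares within a family depend on each other, and no background of such shares over other gene families was formed.

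PDK1 (Pdpk1), which phosphorylates AKT, and both AKT genes had fold changes above 0, none past the threshold. Akt2 (chr7:27591552-27640826) had 32.7 RPKM in the lowest A2M liver, a median of 38.6 and 42.2 in the highest, against 30.9, 36.9, 35.9, 25.8 and 32.3 RPKM in PBS livers. In 4 of 6 A2M livers the RPKM of Akt2 was above every PBS liver, while A2M replicates 2 and 6 were within the PBS range. On the log2 CPM scale of the fit, A2M replicate 3 (6.914) lay just below PBS replicate 3 (6.916). The log2 fold change was 0.24 (SE 0.0964), with a 95% interval from 0.03 to 0.45 and an edgeR adjusted p of 0.266, which ranged from 0.160 to 0.448 over the other settings. Akt1 averaged 18.8 ± 2.50 RPKM in A2M and 16.3 ± 3.18 RPKM in PBS livers, with a log2 fold change of 0.23 (SE 0.122, edgeR adjusted p = 0.432). Pdpk1 averaged 4.02 ± 0.694 RPKM in A2M and 3.64 ± 0.665 RPKM in PBS livers.

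The phosphatases oppose the pathway, Inppl1 (SHIP2) by removing a phosphate from the lipid product of PI3K and Phlpp1 and Phlpp2 by removing one from AKT. Inppl1 had 5.43 RPKM in the lowest A2M liver, a median of 6.67 and 7.82 in the highest, against 7.94, 6.67, 6.91, 5.31 and 6.84 RPKM in PBS livers. The groups covered the same range, with a 95% interval of the log2 fold change from -0.22 to 0.21. Phlpp1 averaged 2.89 ± 0.660 RPKM in A2M and 2.64 ± 0.288 RPKM in PBS livers. Phlpp2 had 0.281 RPKM in the lowest A2M liver, a median of 0.310 and 0.437 in the highest, against 0.453, 0.432, 0.303, 0.247 and 0.343 RPKM in PBS livers, again with overlap.

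Tsc1 and Tsc2 form the complex that switches RHEB off. The small GTPase gene Rheb had 23.4 RPKM in the lowest A2M liver, a median of 25.2 and 29.3 in the highest, against 19.5, 25.0, 22.6, 22.8 and 23.6 RPKM in PBS livers. In 4 of 6 A2M livers the RPKM of Rheb was above every PBS liver, and A2M replicates 1 and 2 were within the PBS range. On the log2 CPM scale of the fit, A2M replicate 3 (5.216) lay just below PBS replicate 4 (5.222). The log2 fold change was 0.19 (SE 0.0942) with an edgeR adjusted p of 0.388. Tsc1 averaged 2.89 ± 0.531 RPKM in A2M and 2.48 ± 0.288 RPKM in PBS livers, with a log2 fold change of 0.24 (SE 0.127, edgeR adjusted p = 0.419). Tsc2 averaged 4.80 ± 0.588 RPKM in A2M and 4.67 ± 0.541 RPKM in PBS livers, and all 3 intervals lay within 1.5-fold.

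All 7 mTOR complex genes had intervals within 1.5-fold. The kinase Mtor averaged 5.10 ± 0.469 RPKM in A2M and 5.42 ± 0.649 RPKM in PBS livers, a log2 fold change of -0.07 (SE 0.0875, edgeR adjusted p = 0.781). Rptor, the scaffold of complex 1, averaged 4.90 ± 0.467 RPKM in A2M and 4.53 ± 0.550 RPKM in PBS livers. Rictor, the scaffold of complex 2, averaged 1.42 ± 0.281 RPKM in A2M and 1.64 ± 0.244 RPKM in PBS livers, with a log2 fold change of -0.19 (SE 0.137). The livers of the groups overlapped for both scaffolds. Mapkap1 (SIN1), also of complex 2, had the smallest spread of the pathway, with 10.9 ± 0.489 RPKM in A2M and 11.5 ± 0.842 RPKM in PBS livers. Mlst8, which is in both complexes, averaged 1.59 ± 0.351 RPKM in A2M and 1.57 ± 0.292 RPKM in PBS livers. The inhibitor Deptor averaged 10.3 ± 2.33 RPKM in A2M and 9.07 ± 1.57 RPKM in PBS livers. For these 3 genes the groups overlapped as well. The inhibitor Akt1s1 (PRAS40) had 9.60 RPKM in the lowest A2M liver, a median of 14.2 and 18.3 in the highest, against 11.3, 13.4, 14.7, 13.2 and 13.6 RPKM in PBS livers. Its A2M livers thus lay on both sides of the PBS range, with a log2 fold change of 0.10 (SE 0.171), and of 0.0055 without A2M replicate 4.

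The substrates held the gene with the smallest p of the pathway, Rps6kb2 (chr19:4156792-4163383 in GRCm38.p6), an S6 kinase gene. Rps6kb2 had 5.02 RPKM in the lowest A2M liver, a median of 5.94 and 7.33 in the highest, against 9.01, 8.08, 6.87, 8.01 and 7.27 RPKM in PBS livers. A single A2M liver, replicate 1, reached into the PBS range, and the other 5 were at most 6.31 RPKM. The log2 fold change was -0.36 (SE 0.113), with a 95% interval from -0.61 to -0.12, and the edgeR adjusted p of 0.140 was the lowest of the 29 genes. It ranged from 0.0655, by DESeq2, to 0.292 over the other settings. In the GENCODE annotation 23.7% of the 5167 exon bases of Rps6kb2 overlap Ptprcap, a lymphocyte gene on the opposite strand. Reads were counted over 1491 RefSeq bases of Rps6kb2, and the overlap of those was not worked out. The libraries do not keep the strand. Ptprcap was low, at 0.0949 to 1.22 RPKM in A2M and 0.0765 to 0.546 RPKM in PBS livers, and its part was not tested.

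Rps6kb1 averaged 3.42 ± 0.352 RPKM in A2M and 3.75 ± 0.142 RPKM in PBS livers, a log2 fold change of -0.12 (SE 0.0853, edgeR adjusted p = 0.583). The summed RPKM of both S6 kinase genes was 9.46 ± 0.529 in A2M livers (8.66 to 10.2) and 11.6 ± 0.855 in PBS livers (10.6 to 12.7). This was the only sum without overlap among the 8 families, and like the share of Pik3r2 it was noticed in the values and has no test. No background of such sums over other gene families was formed. Rps6kb2, the gene with the smallest p above, made up a mean of 63.6% of the sum in A2M and 67.6% in PBS livers.

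Eif4ebp2 (chr10:61428491-61452790), whose product holds back translation until mTOR complex 1 phosphorylates it, had 22.3 RPKM in the lowest A2M liver, a median of 27.3 and 43.2 in the highest, against 20.2, 26.0, 19.3, 9.13 and 26.9 RPKM in PBS livers. The groups overlapped, as the RPKM of A2M replicates 1, 2 and 5 was below that of the highest PBS liver, and the lowest value was that of PBS replicate 4. The log2 fold change was 0.59 (SE 0.224), with a 95% interval from 0.11 to 1.07 and an edgeR adjusted p of 0.231, which ranged from 0.118 to 0.385 over the other settings. Without PBS replicate 4 it was 0.42. Eif4ebp1 had 43.1 RPKM in the lowest A2M liver, a median of 54.2 and 83.2 in the highest, against 39.4, 52.2, 57.1, 48.2 and 50.2 RPKM in PBS livers, a log2 fold change of 0.26 (SE 0.168, edgeR adjusted p = 0.515). Without A2M replicate 1, its highest liver, it was 0.14. The remaining substrates are targets of AKT: the glycogen synthase kinase genes Gsk3a, with 11.4 ± 0.785 RPKM in A2M and 11.3 ± 1.20 RPKM in PBS livers, and Gsk3b, with 3.20 ± 0.612 RPKM in A2M and 3.26 ± 0.421 RPKM in PBS livers, and the death promoter gene Bad, with 7.59 ± 0.768 RPKM in A2M and 8.64 ± 0.871 RPKM in PBS livers. All 3 had 95% intervals within 1.5-fold. In the GENCODE annotation, overlapping genes on the opposite strand share 28.3% of the exon bases of Gsk3a, 22.5% of those of Mlst8 and 20.5% of those of Bad. Gpr137, which overlaps Bad, lay at 5.05 to 8.28 RPKM in A2M and 5.79 to 8.36 RPKM in PBS livers. Where counted exons of the pair overlap, their reads cannot be told apart, and the overlap of the counted RefSeq exons was not worked out.

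**Figure D3:**
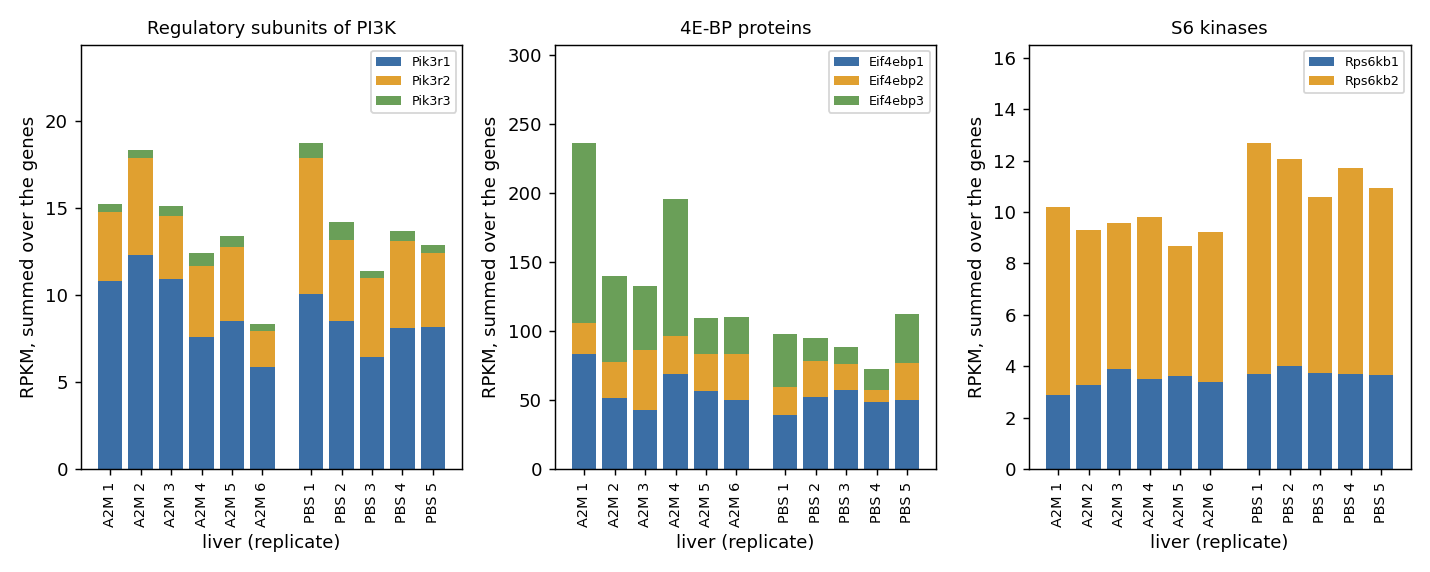
RPKM of the PI3K regulatory subunits, the 4E-BP genes and the S6 kinase genes, stacked in each liver (x axis, A2M replicates 1 to 6 and then PBS replicates 1 to 5). The S6 kinase sums of A2M livers, 8.66 to 10.2, lie below those of PBS livers, 10.6 to 12.7, and Eif4ebp3 sets much of the height of the 4E-BP bars.

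The 29 members tested varied little among livers of a group. Their median biological coefficient of variation, the spread beyond counting error, was 15.7% in edgeR, against 19.4% over all genes tested and 18.5% over the 10073 genes in the same range of RPKM. It was lowest for Mapkap1 (10.6%) and highest for Pik3cd (47.4%), and 18 of 29 were below the median of all genes. The 69 other pathway genes tested, described below, had a higher median of 20.3%. No liver was at the end of the range for all members. PBS replicate 4 was the lowest liver for 8 of the 29 genes, against 13.9% of all genes tested, with a median deviation of -0.13 from the mean of the 11 livers on the log2 scale. A2M replicate 3 was the highest liver for 6 of the 29, against 11.1% of all genes, and A2M replicate 6 the lowest for 6, against 7.96%. The sum of 6 hepatocyte markers, far above the sums of the other cell types, was 51960 to 62153 RPKM in A2M and 43007 to 68824 RPKM in PBS livers, with its highest value in PBS replicate 4.

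**Figure D4:**
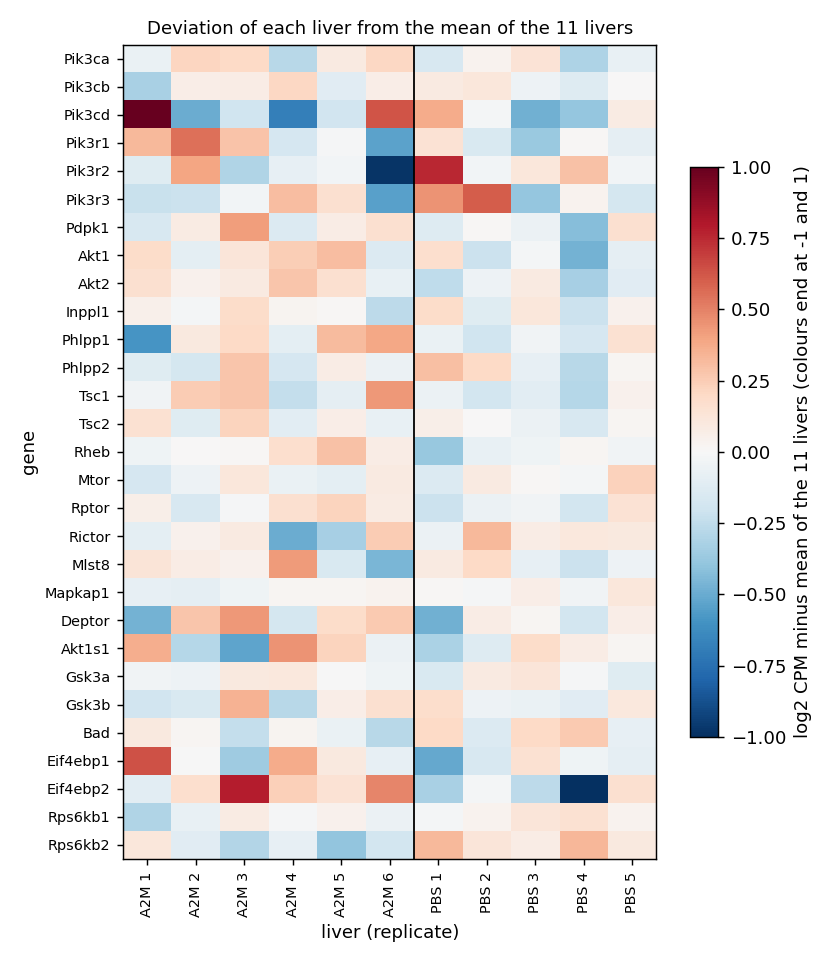
Deviation of each liver (columns, A2M on the left) from the mean of the 11 livers on the log2 CPM scale, for the 29 pathway genes tested (rows), red above and blue below. The darkest cells belong to Pik3cd, Pik3r2 and Eif4ebp2, and PBS replicate 4 is the lowest liver for 8 genes.

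A further 71 genes that feed into the pathway or lie below it were listed by role, and 69 were tested. For 38 of these (55.1%) the 95% interval of the fold change lay within 1.5-fold, against 57.4% of all genes. None of the 69 passed an adjusted p under 0.01 in edgeR, and 11 (15.9%) had an unadjusted p under 0.05, against 14.7% of all genes. This list too was chosen with earlier results of these data known, which limits its comparisons with all genes. The smallest p belonged to Fnip2 (chr3:79455971-79568151), a partner of folliculin in amino acid sensing at the lysosome. Fnip2 had 2.07 RPKM in the lowest A2M liver, a median of 3.91 and 4.52 in the highest, against 2.06, 2.16, 1.85, 1.87 and 2.28 RPKM in PBS livers. The lowest A2M liver, replicate 1, lay inside the PBS range, and the other 5 A2M livers had at least 3.16 RPKM. The log2 fold change of Fnip2 was 0.86 (SE 0.171), with an edgeR adjusted p of 0.0315, and the adjusted p was 0.000227 in DESeq2 and 0.000629 in the edgeR exact test. Without A2M replicate 1 the log2 fold change was 0.98 and the edgeR adjusted p was 0.00141, past the threshold. In the other direction, the edgeR adjusted p of Fnip2 rose to as much as 0.0832 over the other settings. Its paralog Fnip1 had a log2 fold change of 0.51 (SE 0.164, edgeR adjusted p = 0.155).

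Of the other inputs to mTOR complex 1, the arginine sensor gene Castor1 (listed under its older symbol Gatsl3) averaged 1.21 ± 0.196 RPKM in A2M and 0.716 ± 0.192 RPKM in PBS livers, which is 0.79 on the log2 scale (SE 0.207, edgeR adjusted p = 0.0894). Ddit4 (REDD1), a stress-induced inhibitor, averaged 4.04 ± 1.65 RPKM in A2M and 7.0 ± 2.75 RPKM in PBS livers, which is -0.76 on the log2 scale (SE 0.291, edgeR adjusted p = 0.239). Only 1 of the 69 had livers of the groups that did not overlap, against 2.59% of all genes, so the count was not above the background. It was Rhebl1, a relative of Rheb, at 0.315 to 0.683 RPKM in A2M and 0.160 to 0.254 RPKM in PBS livers, from 7 to 25 reads per liver. Rhebl1 stood at 1.18 on the log2 scale (SE 0.276) with an edgeR adjusted p of 0.0575, and of at most 0.129 over the other settings. DESeq2 gave it no adjusted p. In the GENCODE annotation 18.0% of its 3035 exon bases are shared with other annotated genes, while its reads were counted over 1213 RefSeq bases. Prr5l, which binds mTOR complex 2, stood at 0.52 on the log2 scale (SE 0.395, edgeR adjusted p = 0.592), at 0.95 without PBS replicate 2 and at 0.36 without A2M replicate 1.

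Above AKT, the insulin receptor substrate gene Irs2 ranged from 0.720 to 1.45 RPKM in A2M livers and from 0.564 to 4.95 RPKM in PBS livers (edgeR adjusted p = 0.459), so its PBS livers alone spanned the A2M range. The log2 fold change of Irs2, -0.76, was -0.04 without PBS replicate 1. The PI3K adaptor gene Pik3ap1 averaged 19.1 ± 5.17 RPKM in A2M and 13.4 ± 5.41 RPKM in PBS livers (edgeR adjusted p = 0.358). The lipid phosphatase genes Inpp5e and Inpp5k had log2 fold changes of -0.44 and -0.32 (edgeR adjusted p = 0.214 and 0.258). Among AKT-related kinases, Sgk1 averaged 1.74 ± 0.687 RPKM in A2M and 3.50 ± 1.99 RPKM in PBS livers (edgeR adjusted p = 0.177), with a log2 fold change of -0.96 that was -0.63 without PBS replicate 2. Sgk3 averaged 1.48 ± 0.217 RPKM in A2M and 1.26 ± 0.236 RPKM in PBS livers (edgeR adjusted p = 0.448). Downstream, Eif4ebp3, the third 4E-BP gene, had the highest fold change among those tested, at 26.4 to 131 RPKM in A2M and 11.8 to 38.5 RPKM in PBS livers, a log2 fold change of 1.52 (SE 0.453, edgeR adjusted p = 0.124). In the GENCODE annotation 67.3% of its 744 exon bases are shared with another annotated transcript on the same strand. Reads of Eif4ebp3 were counted over 1151 RefSeq bases. Its highest values were those of A2M replicates 1 and 4 (131 and 98.7 RPKM), which were also the highest livers for Eif4ebp1 and Akt1s1. The AKT-regulated transcription factor gene Foxo3 averaged 3.13 ± 0.727 RPKM in A2M and 1.88 ± 0.977 RPKM in PBS livers (edgeR adjusted p = 0.232).

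**Figure D5:**
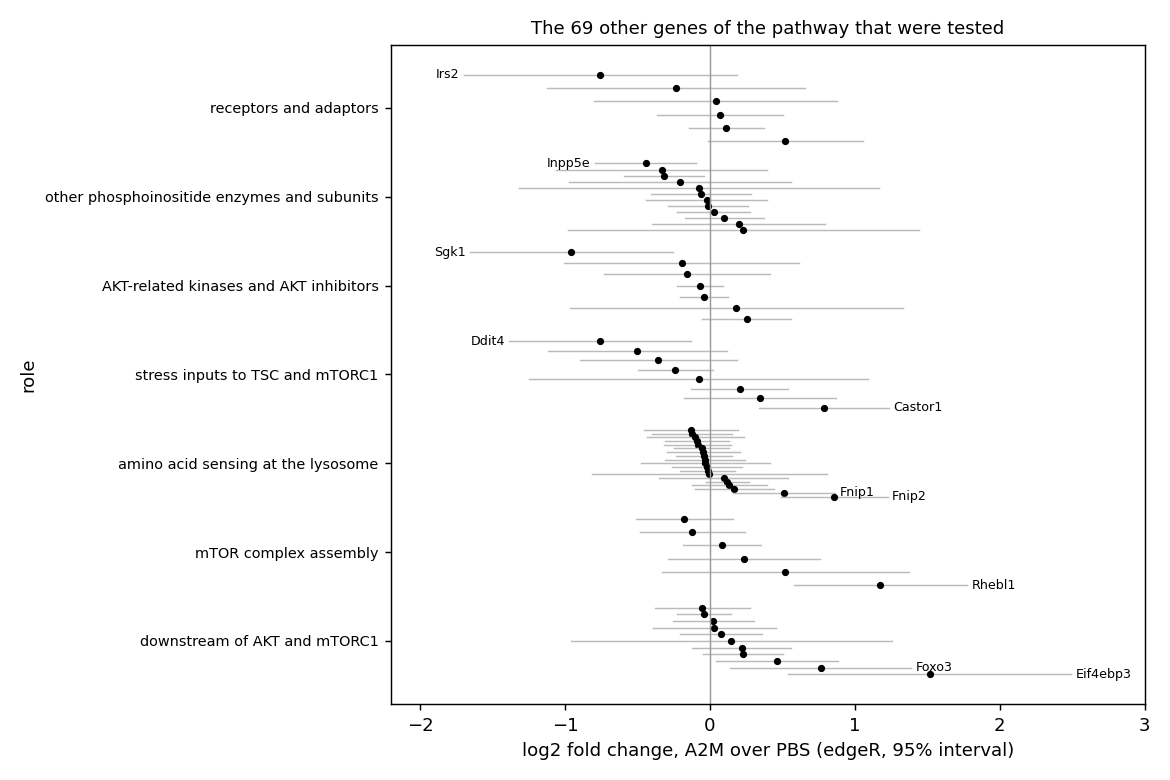
Log2 fold change (A2M over PBS, x axis) of the 69 other pathway genes tested, by role, with 95% intervals from edgeR as lines. None passes an adjusted p under 0.01; Eif4ebp3 at 1.52, Rhebl1 at 1.18 and Fnip2 at 0.86 lie farthest to the right.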

How the data were processed

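Liver RNA of 6 A2M and 5 PBS mice was sequenced by the authors as single reads from TruSeq RNA v2 libraries, which do not keep the strand. Base calls were converted with bcl2fastq 1.8.4, per the submitters' processing notes. TopHat2 aligned the reads to mm10, and featureCounts assigned them to RefSeq genes. The deposited read counts are whole numbers without normalization. In the deposited RPM values each count is divided by its library total, and they matched a recalculation within 1e-06. The deposited RPKM values also use the exon length of featureCounts. Totals were 23545121 to 37357134 counted reads in A2M and 31513210 to 46381692 in PBS livers. No 2 libraries agreed within sampling noise. Replicate numbers are names in order of deposit, and p-values measure the spread between these livers.

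Counts of 24063 genes were tested with edgeR 4.0.16 (TMM, filterByExpr, quasi-likelihood F-test, R 4.3.3), with Benjamini-Hochberg adjustment over 12581 genes where an adjusted p under 0.01 counted as a call. The standard error (SE) was the size of the log2 fold change divided by the root of F. Results were recomputed with RLE size factors, library totals, no filter, robust dispersion, DESeq2 1.42.0, the edgeR exact test with DESeq2, an adjusted p under 0.05, and leaving out libraries. RPKM are mean ± SD. The tests were checked on drawn counts with known changes. The check required only that most of the largest drawn changes be recovered and that false calls be few. It does not show that changes as small as those of the members would be called. The members and lists were chosen with earlier results of these data known. All 30 members were named, with the lowest, median and highest A2M value and each PBS value where the unadjusted p was under 0.05, the level was under 1 RPKM in both groups or the gene led its role; of the other list, the 2 smallest p per role were named. Coordinates and sequences are from RefSeq (GRCm38.p6) and exon overlaps from GENCODE M21, where 11 members overlap a gene on the opposite strand: Bad, Gsk3a, Inppl1, Mlst8 and Rps6kb2 over more than 10% of their exon bases. All overlap shares refer to GENCODE exons, which differ in length from the RefSeq exons over which reads were counted.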

Additional observations from a re-analysis of the deposited data

Results flagged for a closer look

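Among 88 groups of livers looked at for a single liver far from the rest, 4 had one, and chance alone picks about 1 in 20 groups by this criterion. All 4 were high values in PBS livers. Pik3r2 had 7.81 RPKM in PBS replicate 1, where the next highest PBS liver had 4.99. Rictor had 2.07 RPKM in PBS replicate 2, where the next had 1.61. Rps6kb1 had 4.0 RPKM in PBS replicate 2, where the next had 3.72. Prr5l, which is outside the 30 genes, had 0.173 RPKM in PBS replicate 2, where the next had 0.0686. PBS replicate 2 is the liver with the high sums of adrenal cortex and fat markers, and the part of these in the values was not tested.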

How the results depend on the processing

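The count of pathway members past the threshold was 0 of 29 under every alternative run. Fnip2 alone moved the count of other pathway genes from 0 to 1, by DESeq2, by the edgeR exact test together with DESeq2, at an adjusted p under 0.05, without A2M replicate 1 and with both PBS replicate 2 and A2M replicate 1 left out; over single libraries left out this count ran from 0 to 1. The count over all genes was 27, and became 286 by DESeq2, 185 by the edgeR exact test together with DESeq2, 154 at an adjusted p under 0.05, and 10 with both of those livers left out; over single libraries left out it ran from 6 to 35. Of 493 fold changes of members under the alternatives, 467 kept their direction and side of the threshold and 26, over 7 genes, changed sign; the cause was not tested. Of these genes Pik3cd had 0.39 with all livers, and the other 6 lay between -0.08 and 0.04. With RLE size factors and DESeq2, Pik3cb had 0.0025 and 0.0023 and Inppl1 0.0026 and 0.0034 on the log2 scale. With both livers left out, Pik3cb had 0.0884, Pik3cd -0.0584 and Gsk3b 0.0151. Over single libraries left out the log2 fold change ran from -0.0473 to 0.0578 for Pik3cb, -0.0706 to 0.55 for Pik3cd, -0.0539 to 0.0470 for Inppl1, -0.16 to 0.00857 for Phlpp2, -0.0566 to 0.13 for Mlst8, -0.00563 to 0.0647 for Gsk3a and -0.0882 to 0.0448 for Gsk3b. No paired analysis was possible because the labels give no replicate numbers shared by the groups. Pik3cg had at most 40 reads in a liver, too few for the filter.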
